A study of Mus musculus with 2 samples.

Results

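The smooth muscle contractile genes are 10 genes whose products form or control the contractile apparatus of vascular muscle: Acta2, Actg2, Myh11, Myl9, Mylk, Tagln, Cnn1, Lmod1, Pln and Des. They were chosen by their symbols and not by any measured value, and all 10 were found among the 32285 genes of the count matrices. The values come from 2 droplet single-cell RNA libraries of mononuclear cells from mouse limb muscle, 1 labelled DMSO (the vehicle) and 1 labelled MVC. MVC is Maraviroc, a small-molecule drug, and the study asked how it acts on aged muscle. Per the study's methods, both groups were aged C57BL/6 mice injected intraperitoneally with vehicle or with MVC in a short, high-dose regime. Hindlimb muscle was digested enzymatically and live cells were sorted, and the labels add that red cells were removed first. The number of mice behind each library is not given in the sources used here.

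The DMSO library kept 5437 cells with a median of 5802 UMIs (unique molecular identifiers, each counted as 1 captured RNA molecule), and the MVC library kept 5454 cells with a median of 5195 UMIs. Only 8 cell barcodes occurred in both, 0.147% of the cells of each library. With 1 library per group there is no replicate and no test between MVC and DMSO: the 95% intervals below cover counting error only, and animal, library and treatment cannot be told apart. A level is given as CPM, the UMIs of a gene per 1000000 UMIs of the same group of cells. In a comparison, a gene was counted as higher or lower when its CPM ratio was at least 1.5 in that direction, among genes with at least 50 UMIs over both sides.

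Contraction in smooth muscle begins when calcium-bound calmodulin switches on myosin light chain kinase (Mylk), which phosphorylates the regulatory light chain (Myl9) of smooth muscle myosin (heavy chain Myh11), and the motor then pulls on filaments of smooth muscle actin (Acta2, and Actg2 in enteric and some other muscle). Transgelin (Tagln) and calponin (Cnn1) bind those filaments, leiomodin (Lmod1) nucleates them, desmin (Des) ties the apparatus together as an intermediate filament, and phospholamban (Pln) restrains the calcium pump of the sarcoplasmic reticulum. In skeletal muscle these genes mark the mural cells of blood vessels, which run from the ring-forming smooth muscle of arterioles to the pericytes of capillaries. Serum response factor, with its partner myocardin, switches on much of the programme by binding a DNA motif named the CArG box.

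The start regions of 7 of the 10 genes were matched in RefSeq (GRCm38.p6), and those with a CArG-type box in the 250 bases before the start are shown because this motif is the best known shared feature of the programme. The search used CC, 6 bases of A or T, and GG, a motif that reads alike on both strands. The exact motif was in the window of 1 of the 7 genes, Myl9, and in 1.62% of 27025 genes. With 1 G or C allowed in the central 6 bases, it was in 2 of the 7, Acta2 and Myl9, and in 9.78% of all genes. Capitals mark the boxes, and both Acta2 stretches are limited to 30 bases because an annotated first exon covers 217 bases of that window.
Acta2, chr19:34255438-34255467, minus strand, 94 to 65 bases before the start: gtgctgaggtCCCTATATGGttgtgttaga
Acta2, chr19:34255388-34255417, minus strand, 44 to 15 bases before the start: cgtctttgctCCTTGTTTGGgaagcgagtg
Myl9, chr2:156775214-156775419, plus strand, 250 to 45 bases before the start: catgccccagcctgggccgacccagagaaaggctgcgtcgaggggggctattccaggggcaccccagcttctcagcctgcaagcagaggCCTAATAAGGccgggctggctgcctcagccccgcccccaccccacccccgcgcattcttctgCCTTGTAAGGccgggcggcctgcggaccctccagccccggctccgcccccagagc
Only the first Myl9 box, CCTAATAAGG, is an exact match, while each of the other boxes holds a single G or C among its central bases. Neither form was in these windows of Mylk, Cnn1, Lmod1, Pln or Des. Start regions of Myh11, Tagln and Actg2 were not analysed here.

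Cells were grouped by clustering without the 10 genes and without their known partners, and clusters were named from separate marker lists. The smooth muscle-like (SMC-like) group held 63 DMSO and 47 MVC cells, with 14 of 16 smooth muscle markers raised over the other cells. The pericyte-like group held 290 and 286 cells, with 11 of 14 pericyte markers raised. Doublet calls made up 14.1% (DMSO) and 11.5% (MVC) of these cells, against 4.34% and 4.36% of all cells. The 10 endothelial markers summed to 2140 and 2326 CPM in the pericyte-like group. A further mural cluster of 122 and 78 cells was led by Olfr1033, Gm13889, Ccl19, Sdc1 and Lgr5, and raised 8 of 14 pericyte markers beside 6 of 16 smooth muscle markers. The marker rule placed it with the pericytes, but its mean log2 fold was 1.36 for pericyte markers and 0.80 for smooth muscle markers, whereas the pericyte-like group gave 3.41 and 1.28. It was therefore described apart, a choice made after its values were seen. It is called the Ccl19/Lgr5 mural group here after Ccl19 and Lgr5, which are among its leading genes, although a minority of its cells held an Lgr5 UMI. Gm13889, another leading gene, is itself on the smooth muscle marker list. Including the 10 genes in the clustering, or clustering at a higher resolution, kept at least 193 of its 200 cells together, centring genes within each library kept 185, and all 3 kept all 110 SMC-like cells.

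Across all cells, Myh11 and Cnn1 were the most restricted of the 10 genes, with 93.2% and 91.9% of their UMIs in the 3 mural groups over both libraries. Acta2 had 88.4% of its UMIs there, Myl9 84.0%, Lmod1 82.1% and Actg2 78.9%. Tagln and Pln were broader, at 65.2% and 64.4%. Mylk, at 34.9%, and Des, at 22.5%, had most of their UMIs in other cells. B cell-like cells, a cell type that should lack the contractile apparatus, served as the comparison for low levels. There the 10 genes ran from 0 to 7.59 CPM in the DMSO library and from 0 to 35.2 CPM in the MVC library, the highest being Mylk, whose 24 UMIs came from 5 of 106 cells. T/NK-like cells of the MVC library held 23 Mylk UMIs among 490433 UMIs. Neutrophil-like cells of the DMSO library held 12 Acta2 and 15 Tagln UMIs among 478617. The B cell-like levels are therefore not the highest among blood cells. Whether such UMIs were free RNA, doublets (9.43% of the B cell-like group in the MVC library) or the cells' own was not tested.

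**Figure D1:**
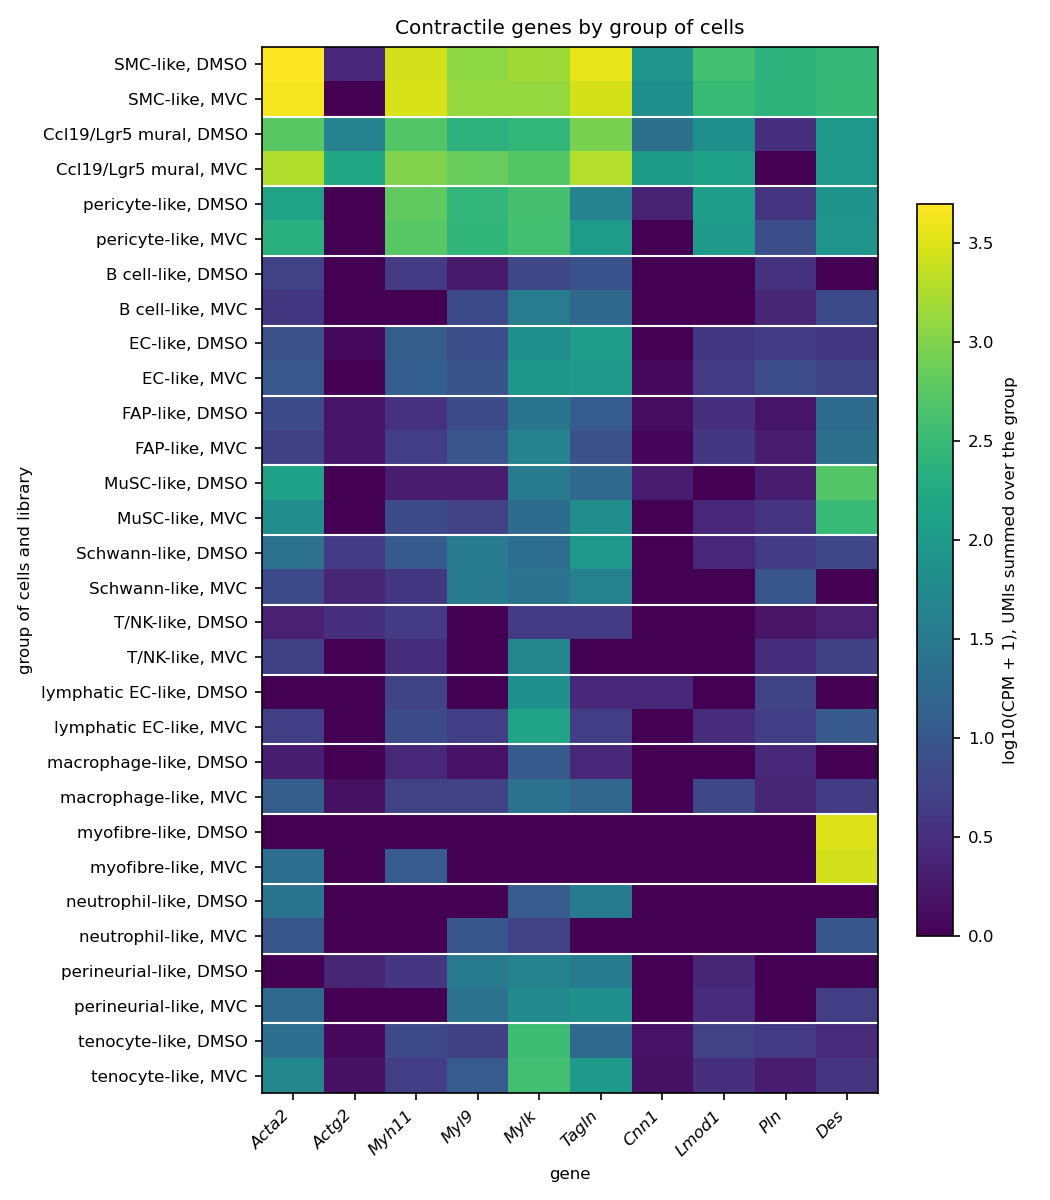
Level of each of the 10 genes (columns) in each group of cells and library (rows), as log10(CPM + 1) from summed UMIs, on the colour scale at the right. The top 3 pairs of rows are the mural groups, where 9 of the genes reach their highest levels. Des is brightest in the myofibre-like rows, and Actg2 in the Ccl19/Lgr5 mural rows.

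Acta2 lies on chr19:34241090-34255590 (minus strand, GRCm38) and encodes the actin of vascular smooth muscle. Its level in SMC-like cells was 4978 CPM (95% Poisson interval 4802–5159) in the DMSO library and 4374 CPM (4194–4560) in the MVC library. Ccl19/Lgr5 mural cells had 568 CPM (520–620) and 1889 CPM (1769–2015), and pericyte-like cells 132 CPM (114–151) and 219 CPM (194–248). The order SMC-like, Ccl19/Lgr5 mural, pericyte-like was the same in both libraries, with no overlap of intervals between neighbours. SMC-like cells exceeded pericyte-like cells 37.7-fold (32.7–43.7) in the DMSO library and 19.9-fold (17.5–22.7) in the MVC library. The mean of each cell's own CPM gave 31.4 and 33.4, so the difference in steepness between the libraries depended on the weighting of cells. Under a stricter cell filter (1000 or more detected genes, mitochondrial share up to 5%) the ratios were 23.3 and 11.5.

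Every SMC-like cell held Acta2, from 250 CPM in the lowest DMSO cell over a median of 3695 to 13291 in the highest. In the MVC library the lowest, median and highest SMC-like cells had 131, 3757 and 19444 CPM. The median pericyte-like cell had none in either library and the highest had 1900 CPM (DMSO) and 1946 CPM (MVC). Ccl19/Lgr5 mural cells spanned the whole distance, from 0 to 7092 CPM with a median of 191 in the DMSO library and from 0 to 8441 CPM with a median of 1281 in the MVC library.

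**Figure D2:**
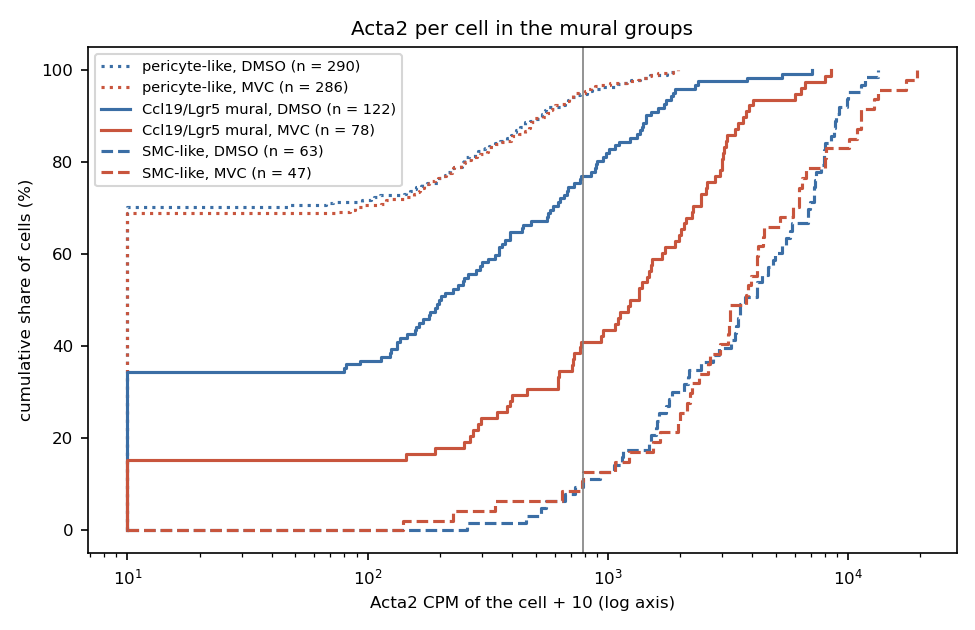
Cumulative share of cells (vertical axis, %) with at most a given Acta2 CPM plus 10 (horizontal log axis), for the 3 mural groups in the DMSO library (blue) and MVC library (red). The vertical line marks 776 CPM, the 10th percentile of SMC-like cells. The paired SMC-like and pericyte-like curves run close to each other, whereas the Ccl19/Lgr5 mural curve of MVC lies to the right of that of DMSO, with medians of 1281 and 191 CPM.

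Actg2, the second smooth muscle actin (chr6:83512905-83536265, minus strand), had a pattern unlike that of Acta2. It had 1 UMI in SMC-like cells of the DMSO library and 0 in those of the MVC library, and 0 in the 576 pericyte-like cells of both. In Ccl19/Lgr5 mural cells it had 38 UMIs in the DMSO library (42.6 CPM, 30.1–58.5) and 77 UMIs in the MVC library (158 CPM, 125–198). Those UMIs came from 13.9% and 29.5% of the cells, and the 3 richest cells gave 39.5% and 49.4% of them. Against pericyte-like cells, taken at the limit that a count of 0 allows (3 UMIs), the level was at least 21.8-fold higher in the DMSO library and at least 63.0-fold higher in the MVC library.

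The motor genes showed a shallower gradient. Myh11 (chr16:14194535-14291372, minus strand) had 2763 CPM (2632–2898) in SMC-like cells of the DMSO library and 2965 CPM (2817–3119) in those of the MVC library. Pericyte-like cells had 612 CPM (574–653) and 536 CPM (495–579), so SMC-like cells were 4.51-fold and 5.53-fold higher (2.94 and 3.52 under the stricter cell filter). In Ccl19/Lgr5 mural cells Myh11 was at 512 CPM (466–561) in the DMSO library, below the pericyte-like level, and at 1003 CPM (916–1096) in the MVC library, above it. Its order among the 3 groups therefore differed between the libraries, unlike that of Acta2.

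Myl9 (chr2:156775420-156781658, plus strand) had 1184 and 1281 CPM in SMC-like cells of the DMSO and MVC libraries and 271 and 264 CPM in pericyte-like cells. Ccl19/Lgr5 mural cells stood at 235 CPM (205–270), which overlapped the pericyte-like interval of 246–298, in the DMSO library and at 689 CPM (617–766) in the MVC library. Mylk (chr16:34745210-35002420, plus strand) had 1475 and 1314 CPM in SMC-like cells, 281 and 524 CPM in Ccl19/Lgr5 mural cells, and 400 and 384 CPM in pericyte-like cells. SMC-like cells exceeded pericyte-like cells 4.37-fold and 4.86-fold for Myl9 (2.76 and 2.47 under the stricter cell filter) and 3.69-fold and 3.42-fold for Mylk. Mylk overlaps annotated genes on the opposite strand, as do Tagln, Pln and Des, and how the counting used strand is not given in the sources used here, so a part of their reads could belong to the partner gene.

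Among the filament-binding proteins, Tagln (chr9:45929619-45936058, minus strand) had the steepest well-counted gradient. SMC-like cells had 3646 CPM (DMSO) and 2906 CPM (MVC), Ccl19/Lgr5 mural cells 902 and 1916 CPM, and pericyte-like cells 42.9 and 111 CPM. SMC-like cells exceeded pericyte-like cells 85-fold (66.5–110) in the DMSO library and 26.3-fold (22.0–31.7) in the MVC library, and 52.2-fold and 15.2-fold under the stricter cell filter. It also set Ccl19/Lgr5 mural cells apart from pericyte-like cells, at 21-fold (16.4–27.5) in the DMSO library and 17.3-fold in the MVC library.

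Cnn1 (chr9:22099216-22109630, plus strand), a marker of mature contractile cells, was sparse. It had 51 UMIs (83.9 CPM, 62.5–110) in SMC-like cells of the DMSO library and 35 UMIs (68.9 CPM, 48.0–95.8) in those of the MVC library. Ccl19/Lgr5 mural cells had 20 UMIs (22.4 CPM, 13.7–34.6) and 50 UMIs (103 CPM, 76.3–136), and pericyte-like cells had 2 and 0 UMIs. In the MVC library the intervals of the SMC-like and Ccl19/Lgr5 mural groups overlapped, whereas in the DMSO library the SMC-like level was 3.74-fold higher. Lmod1 (chr1:135324807-135368065, plus strand) had 378 and 305 CPM in SMC-like cells, 68.4 and 125 CPM in Ccl19/Lgr5 mural cells, and 119 and 95.5 CPM in pericyte-like cells. SMC-like cells exceeded pericyte-like cells 3.18-fold and 3.19-fold, the latter 1.88 under the stricter cell filter.

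Pln (chr10:53337667-53345987, plus strand) was the member that most cleanly separated SMC-like cells from both other mural groups. SMC-like cells had 148 UMIs (243 CPM, 206–286) in the DMSO library and 126 UMIs (248 CPM, 206–295) in the MVC library. Ccl19/Lgr5 mural cells had 2 and 0 UMIs, and pericyte-like cells 4 and 8 UMIs. The SMC-like level exceeded the pericyte-like one 93.6-fold (35.8–348) and 37.0-fold (18.2–87.6; 21.2 by the per-cell mean), and in the MVC library it was at least 40.2-fold higher than in Ccl19/Lgr5 mural cells. The Ccl19/Lgr5 mural group thus held Acta2, Tagln and Cnn1, at summed levels below those of SMC-like cells except for Cnn1 in the MVC library. By the mean of each cell's own CPM, Cnn1 in the MVC library was lower in this group (76.1) than in SMC-like cells (87.8). A Cnn1 UMI was seen in 6.56% (DMSO) and 14.1% (MVC) of its cells and in 28.6% and 29.8% of SMC-like cells. Pln was at or below the limit of 3 UMIs in the Ccl19/Lgr5 mural group.

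Des (chr1:75360329-75368579, plus strand) differed little between the pericyte-like and Ccl19/Lgr5 mural cells. It stood at 293 and 303 CPM in SMC-like cells, 93.0 and 92.5 CPM in Ccl19/Lgr5 mural cells, and 74.7 and 83.7 CPM in pericyte-like cells. The Ccl19/Lgr5 mural and pericyte-like intervals overlapped in both libraries. SMC-like cells exceeded pericyte-like cells 3.92-fold and 3.62-fold, the latter 2.39 under the stricter cell filter.

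**Figure D3:**
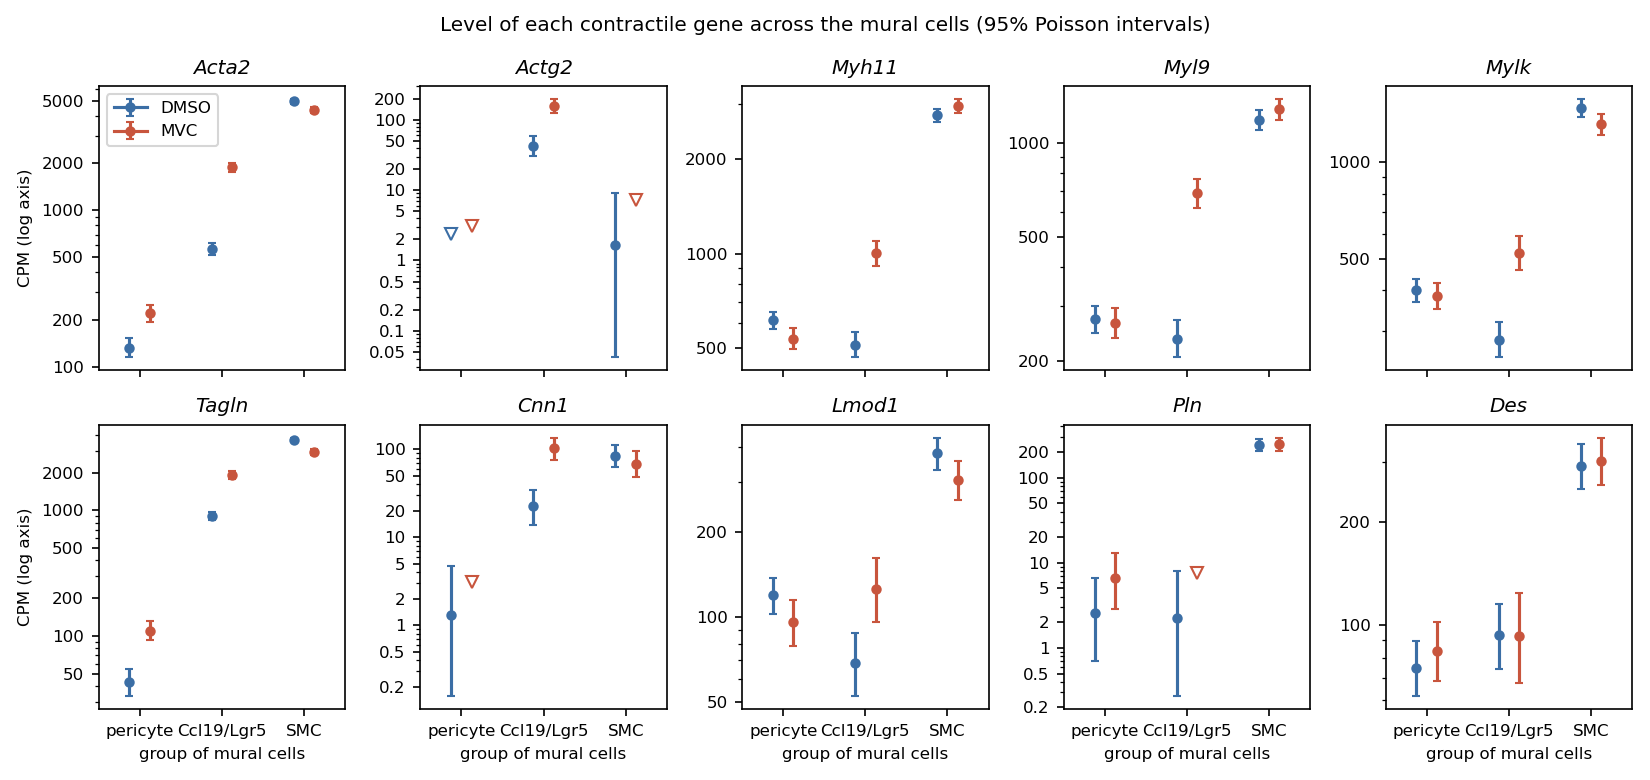
Level of each gene (CPM, log axis, a separate scale for each panel) in pericyte-like, Ccl19/Lgr5 mural and SMC-like cells, with 95% Poisson intervals, for the DMSO library (blue) and MVC library (red). Open triangles are upper 95% limits where no UMI was counted. Acta2 and Tagln rise stepwise, Actg2 peaks in the Ccl19/Lgr5 mural group, and Pln is high in SMC-like cells alone (243 and 248 CPM).

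Set against all genes, 9 of 9 members with enough UMIs were higher in SMC-like than in pericyte-like cells of the DMSO library, where 18.1% of all genes tested were, and 8 of 8 in the MVC library, where 18.0% were. SMC-like cells also exceeded Ccl19/Lgr5 mural cells in 9 of 9 members in the DMSO library, against 23.4% of all genes. In the MVC library they did so in 8 of 10, against 25.7%, with Actg2 lower (a direction shared by 25.3% of genes) and Cnn1 at a ratio of 0.67. Ccl19/Lgr5 mural cells exceeded pericyte-like cells in 2 of 7 members in the DMSO library (19.0% of all genes), Acta2 and Tagln, with Lmod1 lower at 0.575 (31.7% of genes). In the MVC library they did so in 6 of 9 (18.0% of all genes): Acta2, Actg2, Tagln, Cnn1, Myl9 and Myh11. There Actg2 (77 and 0 UMIs) and Cnn1 (50 and 0) met the count limit only through the Ccl19/Lgr5 mural cells, which fixed their direction. In the DMSO library, at 38 and 0 and at 20 and 2 UMIs, they missed it, so the 2 counts cover unlike genes. Likewise Pln (148 and 4 UMIs) and Cnn1 (51 and 2) entered the DMSO count of SMC-like over pericyte-like cells through the SMC-like cells. Smooth muscle and pericyte-like cells differ in depth (medians of 9788 and 4193 UMIs per cell in the DMSO library), which CPM takes into account, and in mitochondrial share (medians of 5.16% and 1.81%). The stricter cell filter, which limits mitochondrial share and gene number together, left 31 of 63 (DMSO) and 26 of 47 (MVC) SMC-like cells. The part of mitochondrial share alone was not tested.

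Counting how many of the 10 genes a single cell showed, after each cell was thinned to 2000 UMIs, gave a median of 6 in SMC-like cells of both libraries. At least 5 of them occurred in 85.7% (DMSO) and 78.7% (MVC) of SMC-like cells and in 2.27% and 6.42% of pericyte-like cells. In Ccl19/Lgr5 mural cells the median was 2 in the DMSO library and 4 in the MVC library, and cells with at least 5 made up 11.7% and 43.1%. The median B cell-like cell showed 0. Thinning left out no SMC-like cell, and it left 120 and 72 Ccl19/Lgr5 mural and 264 and 187 pericyte-like cells.

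In the same thinned cells, Myh11 was found in 95.2% and 95.7% of SMC-like cells, 48.3% and 62.5% of Ccl19/Lgr5 mural cells, and 61.7% and 57.8% of pericyte-like cells. Tagln was found in 92.1% and 89.4%, 50.8% and 77.8%, and 6.06% and 15% of the same groups. Thus Myh11 was detected in most pericyte-like cells, and Tagln in few of them. In B cell-like cells no member was detected in more than 1.98% (DMSO) or 2.20% (MVC) of cells.

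**Figure D4:**
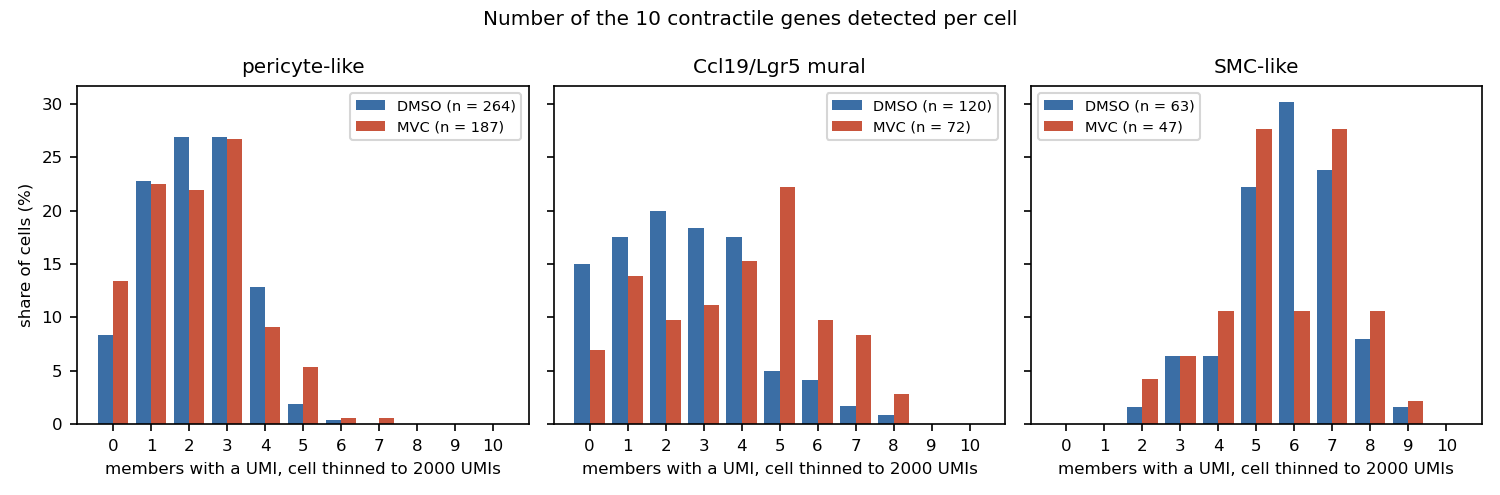
Share of cells (vertical axis, %) by the number of the 10 genes with at least 1 UMI (horizontal axis) after thinning to 2000 UMIs, in 3 mural groups, for DMSO (blue) and MVC (red). SMC-like cells centre on 6 in both libraries, and the Ccl19/Lgr5 mural cells of MVC are spread further to the right (median 4) than those of DMSO (median 2).

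The second question was whether the MVC library differed from the DMSO library within each mural group. In SMC-like cells none of 9 members tested passed the 1.5-fold limit in either direction, where 15.9% of all genes tested were higher and 10.1% lower. Tagln had the lowest well-counted ratio of MVC over DMSO, 0.797 (0.746–0.852), followed by Lmod1 at 0.806 (0.653–0.993), Acta2 at 0.879 (0.831–0.928) and Mylk at 0.891 (0.805–0.986). The mean of each cell's own CPM was higher in the MVC library for Tagln (3184 in DMSO, 3352 in MVC), Acta2 (4619 and 4987) and Mylk (1350 and 1412). It was lower there for Lmod1 (394 and 332). Ratios of Myh11, Myl9, Pln and Des, from summed UMIs, were 1.07, 1.08, 1.02 and 1.04. The 10 genes summed gave 0.915 (0.887–0.944), while the mean of each cell's own CPM gave 1.13, so the direction of the sum depends on whether deep cells weigh more. Fewer than 50 SMC-like cells came from the MVC library. The 10 endothelial markers summed to 738 CPM in SMC-like cells of the DMSO library and 2267 CPM in those of the MVC library, with none at 0, and the 10 tenocyte markers to 88.8 CPM (5 at 0) and 647 CPM (3 at 0). Their part in these ratios was not tested.

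The Ccl19/Lgr5 mural group was where the libraries differed most. Of 9 members tested, 8 were at least 1.5-fold higher in the MVC library and none was lower, where 10.9% of all genes tested were higher and 9.91% lower. At a limit of 2-fold, 5 of the 9 were higher, where 2.92% of all genes were. Acta2 stood at 568 CPM (DMSO) and 1889 CPM (MVC), a ratio of 3.32 (2.98–3.71). Actg2 had a ratio of 3.72 (2.49–5.63), Cnn1 4.58 (2.68–8.13), Myl9 2.93 (2.45–3.49), Tagln 2.12 (1.93–2.34), Myh11 1.96 (1.72–2.23), Mylk 1.86 (1.56–2.23) and Lmod1 1.83 (1.26–2.66). Des, at 0.994 (0.676–1.45), was the exception, and Pln was too rare to compare. The 10 genes summed were 2.38-fold (2.26–2.51) higher.

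A few cells carried much of the rarer genes in this group. The 3 richest cells of the MVC library held 27.7% of the Acta2, 25.6% of the Tagln, 34.2% of the Myh11, 49.4% of the Actg2 and 62.0% of the Cnn1 UMIs. Leaving out, for each gene, the 3 cells of each library with the most UMIs of it gave 3.04 (2.68–3.44) for Acta2, 1.96 for Tagln, 1.64 for Myh11, 3.29 for Actg2 and 1.44 (0.909–2.28) for Lmod1, which then missed the limit. The share of unthinned cells with an Acta2 UMI was 65.6% in the DMSO library and 84.6% in the MVC library, a difference of 19.0 percentage points (6.64–29.9), although the MVC cells were shallower (medians of 6721 and 5633 UMIs). After thinning the shares were 44.2% (35.1–53.5) and 70.8% (58.9–81.0).

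Marker lists of the group were summed in the same way. The 16 smooth muscle naming markers, which hold none of the 10 genes, summed to 4431 CPM in the DMSO library and 4121 CPM in the MVC library. The 14 pericyte markers summed to 6008 and 4933 CPM, and the 10 endothelial markers to 935 and 939 CPM, with none at 0. The 10 satellite cell markers, 7 of them at 0 in either library, summed to 410 and 171 CPM. The lists that differed most included the 7 lymphatic endothelial markers (2 at 0 in either library), at 615 CPM in the DMSO and 51.4 CPM in the MVC library, and the 8 perineurial markers (4 at 0), at 358 and 140 CPM. The 29 genes of a dissociation response list summed to 28940 and 26721 CPM. Whether these differences bear on the contractile genes was not tested.

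**Figure D5:**
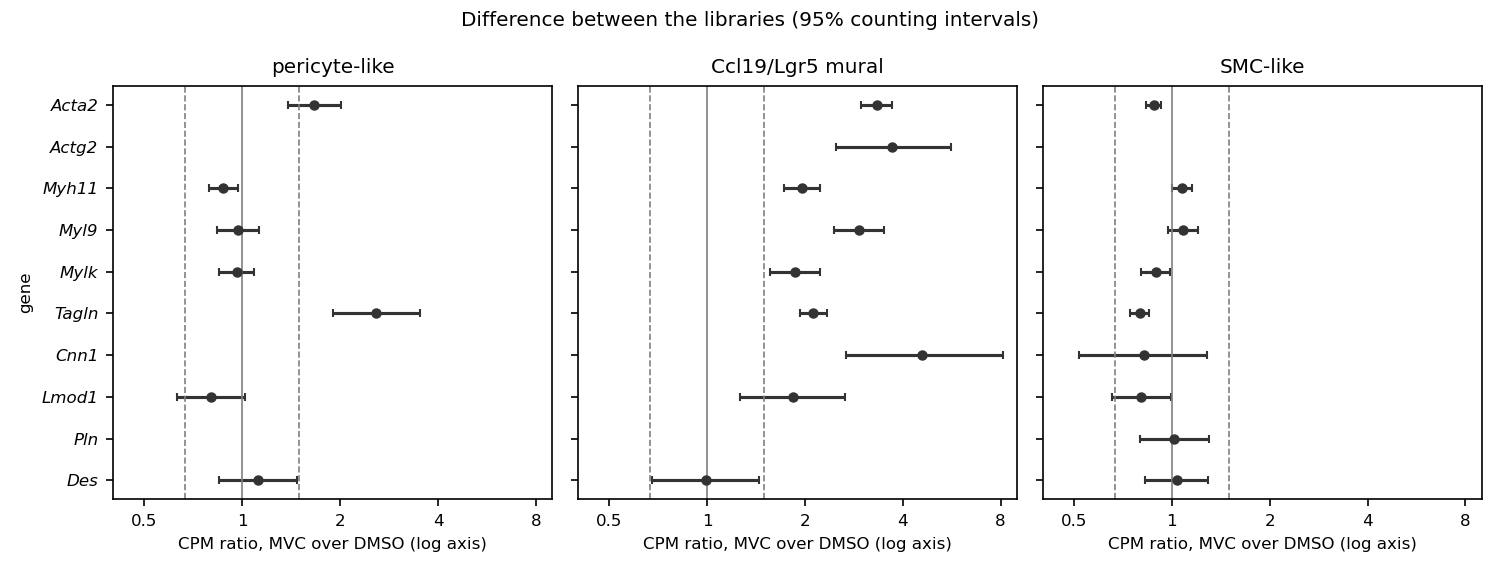
CPM ratio of MVC over DMSO (horizontal log axis) with 95% counting intervals for each gene with at least 50 UMIs, in pericyte-like, Ccl19/Lgr5 mural and SMC-like cells. Solid lines mark 1 and dashed lines the 1.5-fold limits. In the middle panel 8 genes lie beyond the upper limit and Des lies at 0.994, while all 9 points of the SMC-like panel lie within the limits.

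The Ccl19/Lgr5 mural cells were further divided at 776 CPM of Acta2, the 10th percentile of SMC-like cells, a cut set after the data were seen. At or above it were 28 of 122 DMSO cells (23.0%, 15.8–31.4) and 46 of 78 MVC cells (59.0%, 47.3–70.0). In the SMC-like group 90.5% and 89.4% of cells passed the same cut, and in the pericyte-like group 5.17% and 4.90%. The cut divides a continuous range: 9 of the DMSO cells above it and 12 below it, and 5 and 8 of the MVC cells, lay within 1.5-fold of it.

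Above the cut, the other contractile genes were high as well. Myh11 was at 855 CPM above and 398 CPM below in the DMSO library, and at 1487 and 337 CPM in the MVC library. Tagln was at 2216 and 464 CPM, and at 2750 and 767 CPM. Actg2 lay largely above it, with 31 and 7 UMIs in the DMSO library and 77 and 0 UMIs in the MVC library, and Cnn1 likewise, with 18 and 2 and with 50 and 0 UMIs. Des did not follow, at 94.0 and 92.7 CPM (DMSO) and 92.3 and 92.8 CPM (MVC). Colec11, a pericyte naming marker, was also higher above the cut, at 371 and 124 CPM in the DMSO library and 270 and 58.6 CPM in the MVC library. Lgr5 gave no common order, at 89.5 CPM above and 354 below (DMSO) but 369 above and 195 below (MVC). A UMI of Lgr5 was seen in 10.7% of cells above and 30.9% below (DMSO), and in 28.3% and 28.1% (MVC).

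Cells on the same side of the cut still differed between the libraries. Above it, Acta2 was at 1665 CPM (1500–1843) in the DMSO and 3051 CPM (2851–3262) in the MVC library, and Myh11 at 855 CPM (738–985) and 1487 CPM (1348–1636). Below it, Acta2 was at 202 CPM (169–239) and 288 CPM (219–372), and Myh11 at 398 CPM (351–449) and 337 CPM (262–427), with overlapping intervals. The cut uses Acta2 itself, so these values describe the cells and test nothing.

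In pericyte-like cells 2 of 7 members tested were higher in the MVC library, where 9.88% of all genes tested were higher, and none was lower, where 5.80% were. At 2-fold Tagln alone was higher, where 2.16% of all genes were. Tagln went from 42.9 to 111 CPM, a ratio of 2.58 (1.90–3.52), and Acta2 from 132 to 219 CPM, a ratio of 1.66 (1.38–2.01). Whether Acta2 passed the limit depended on the cells left out. Without the 3 cells of each library richest in the gene itself, the ratio was 1.53 (1.25–1.88) for Acta2 and 2.34 (1.66–3.33) for Tagln. Without the 3 cells of each library with the highest sum of the 10 genes, it was 1.36 for Acta2 and 2.03 for Tagln. The mean of each cell's own CPM gave 1.02 for Acta2, and the shares of unthinned cells with an Acta2 UMI, 29.7% and 31.1%, differed by 1.46 points (−6.02 to 8.94). No motor gene passed the limit, with Myh11 at 0.876 (0.791–0.969), and the 10 genes summed gave 1.03 (0.968–1.09). Pericyte-like cells of the MVC library were shallower (medians of 4193 and 2938 UMIs), and 5 erythroid markers summed to 4297 CPM in DMSO and 39.4 CPM in MVC, with none at 0. The dissociation list summed to 52104 and 39552 CPM, with 8 genes lower and 0 higher. What these contribute to the Acta2 and Tagln ratios was not tested.

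Partners of the 10 genes were read from lists chosen by function. For the counts in SMC-like against pericyte-like cells of the DMSO library, 18.1% of all genes tested were higher and 35.6% lower. Of 13 thin and thick filament partners, 10 were higher in SMC-like than in pericyte-like cells of the DMSO library, and their median log2 ratio was 1.25 against −0.24 for all genes. They were led by the tropomyosin Tpm2 (13.1-fold), the essential light chain Myl6 (5.58-fold), the tropomyosin Tpm1 (3.61-fold) and Csrp1 (3.22-fold), a LIM protein of the cytoskeleton. Of 11 anchorage genes 9 were higher (median log2 1.34), with Pdlim3 22.5-fold, the intermediate filament protein Synm 10.7-fold, the actin crosslinker Flna 8.07-fold and alpha-actinin Actn1 5.55-fold. Calcium and cyclic nucleotide genes were divided, with 4 higher and 2 lower of 11. The ryanodine receptor Ryr2 was 78.5-fold and the large-conductance potassium channel Kcnma1 23.8-fold higher, whereas the guanylate cyclase subunit Gucy1b1, at 0.467, and the L-type calcium channel Cacna1c, at 0.620, were lower.

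Among 8 regulators of the programme, 3 were higher and 2 lower in SMC-like than in pericyte-like cells of the DMSO library. Of all genes tested, 18.1% were higher and 35.6% lower. Myocd, which encodes myocardin, was 6.79-fold, Klf4 4.05-fold and Foxs1 1.70-fold higher. Tbx18, a transcription factor of mural cells, stood at 0.230 and Mrtfb, a myocardin relative, at 0.217. Of 5 non-muscle and striated paralogues none was higher and 3 were lower: the light chains Myl12a and Myl12b and the non-muscle heavy chain Myh9.

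In the Ccl19/Lgr5 mural group, where 10.9% of all genes were higher and 9.91% lower, 6 of 12 thin and thick filament partners were higher in the MVC library and 0 lower, with a median log2 ratio of 0.58 against 0.02 for all genes. Tpm2 was 2.81-fold, Ppp1r14a (an inhibitor of myosin phosphatase) 2.40-fold, Csrp1 2.17-fold and Ppp1r12b (its myosin-targeting subunit) 1.91-fold higher. Anchorage genes gave 2 of 9, Flna at 2.42 and Actn1 at 1.51. Among calcium and cyclic nucleotide genes, Pde5a at 1.63 and Gucy1a1 at 1.52 were higher, and Kcnma1 had 76 UMIs in the DMSO library and 1 in the MVC library, a ratio of 0.0241, but 75% of its DMSO UMIs came from 3 cells. The regulators gave Mrtfb alone, at 1.54, of 5, and the paralogues gave Actb at 1.60 and Actg1 at 1.53 of 5, both non-muscle actins, beside the 3.32 of Acta2.

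In SMC-like cells, where 15.9% of all genes were higher and 10.1% lower, the filament partners gave 1 higher (Cnn3 at 1.56) and 2 lower (Smtn at 0.587 and Ppp1r14a at 0.641) of 13 in the MVC library. Of their 11 calcium genes Itpr1 was higher at 1.51, and Ryr2 (0.476) and Pde5a (0.667) were lower. Of 8 regulators 3 were lower and 1 higher, with Foxs1 at 0.229, Heyl, a Notch target, at 0.442 and Klf4 at 0.482, and Mrtfb at 2.79. In anchorage genes Svil, at 0.517, was lower, and among paralogues Actg1, at 1.5, was higher. Pericyte-like cells, where 9.88% of all genes were higher and 5.80% lower, had no filament partner past the limit of 13 and no calcium gene of 9, the anchorage gene Nexn higher at 1.52, Myocd (0.534) and Foxs1 (0.608) lower, and Myh10 higher at 1.93.

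Outside the mural cells, the 10 genes appeared singly. Tagln had a second site in endothelium: a cluster of 250 DMSO and 217 MVC cells whose leading genes include Selp, Sele, Plvap and Ackr1 had 499 CPM (469–531) and 450 CPM (418–484). Of these, Selp and Sele are adhesion genes and Ackr1 a chemokine-binding gene of venules. The other endothelial cells had 10.5 and 12.4 CPM, a ratio of 47.5 (38.1–59.8) and 36.3 (28.8–46.2), where 19.4% and 13.4% of all genes were at least 1.5-fold higher. A Tagln UMI was seen in 52.4% and 48.8% of the cluster's cells and in 2.91% and 2.69% of other endothelial cells. Acta2 was highest elsewhere in endothelium, in the cluster led by Cytl1, Edn1, Sema3g and Gja5 (genes of arterial endothelium), at 23.5 and 21.9 CPM against 3.68 and 6.0 CPM in the other endothelial cells (10.5% and 10.6% of all genes were higher there). Acta2 was sparse in endothelium: 1.81% and 2.89% of all endothelial-like cells held a UMI of it. Without the 3 richest cells of each library, 48 (DMSO) and 64 (MVC) of the 75 UMIs in each were left. For comparison, neutrophil-like cells of the DMSO library held 12 Acta2 UMIs among 478617 UMIs. Whether the endothelial Acta2 UMIs were the cells' own was not tested. Both endothelial clusters were chosen for description after their values were seen.

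Mylk was the member shared with tendon. Tenocyte-like cells had 356 and 397 CPM, close to the 400 and 384 CPM of pericyte-like cells. A cluster of 195 and 220 of them led by Angptl7, Fmod and Comp reached 586 and 650 CPM, against 182 and 192 CPM in the other tenocyte-like cells, a ratio of 3.21 and 3.38, where 11.8% and 9.69% of all genes were higher. Mylk was found in 89.7% and 88.2% of that cluster's cells. Lymphatic endothelial-like cells had 71.4 and 143 CPM, endothelial-like cells 68.4 and 88.8 CPM, and fibro-adipogenic progenitor-like (FAP-like) cells 26.5 and 44.0 CPM, while B cell-like cells stood at 5.06 and 35.2 CPM, the latter from 5 cells. The T/NK-like cells of the MVC library held 23 Mylk UMIs among 490433 UMIs.

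Des was the member shared with skeletal muscle, where it encodes the intermediate filament of the fibre. Myofibre-like cells had 3197 CPM (DMSO, 14 cells) and 2804 CPM (MVC, 25 cells), above the SMC-like 293 and 303 CPM, and muscle satellite cell-like (MuSC-like) cells had 518 and 321 CPM. The MuSC-like ratio of MVC over DMSO was 0.620 (0.552–0.696), but the 3 richest DMSO cells held 34.3% of the UMIs, and without the 3 richest cells of each library the ratio was 0.808 (0.707–0.923).

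Tagln and Acta2 also differed between the libraries in tenocyte-like cells. Of 4 members tested, 3 were higher in the MVC library, where 9.38% of all genes tested were. Tagln went from 17.2 to 95.2 CPM, a ratio of 5.54 (4.27–7.28), Acta2 from 21.2 to 49.9 CPM, a ratio of 2.35, and Myl9 had a ratio of 2.58. Without the 3 richest cells for each gene the ratios were 6.84 (4.90–9.78), 2.08 (1.56–2.80) and 2.63 (1.32–5.59). Tagln lay mostly in the cluster led by Thbs4, Tac1 and Timp1, where it went from 27.5 to 154 CPM and from 8.47% to 18.9% of cells.

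In MuSC-like cells the Acta2 value of the DMSO library rested on 1 cell. That cell held 140 of the 144 UMIs, and the ratio of 0.486 (0.378–0.624) turned to 36.9 (6.40–1477) without the 3 richest cells of each library, from 1 and 67 UMIs. Tagln there went from 18.2 to 66.8 CPM, a ratio of 3.67, and the ratio was 10.3 (3.85–38.7) without the 3 richest cells, from 4 and 75 UMIs. Of the 4 members tested in this group 1 was higher and 3 lower, where 10.0% and 8.83% of all genes were. In FAP-like cells, Myh11 (1.60) and Mylk (1.66) of 7 members tested were higher, where 11.7% of all genes were, and Acta2 of the DMSO library again came from few cells, as 1 cell held 42 of its 74 UMIs. Endothelial-like cells had Pln (1.81) and Des (1.55) higher of 8, where 9.98% of all genes were, from levels of at most 6.51 CPM.

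Genes were ranked by how closely they followed the mean of the 10 over 13 marker-named classes in both libraries (26 points, which share libraries and depth). These classes pool the Ccl19/Lgr5 mural cells with the pericyte-like cells and leave out the few myofibre-like cells. The closest were Cabp1, Slc6a17, Slc2a4, Olfr558, Adamts8, Ppp1r3c, Myocd, Trpc6, Ppp1r14a and Tmem132d, with Pearson correlations of log2(CPM + 10) from 0.973 down to 0.958. Olfr558 was itself a smooth muscle naming marker, and Myocd and Ppp1r14a were on the partner lists. Of the 10 genes, which contribute to that mean, Lmod1 (0.978), Myh11 (0.975) and Acta2 (0.969) were closest to it, and Des (0.730) and Actg2 (0.461) were farthest.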

How the data were processed

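Single-cell libraries of limb muscle mononuclear cells (10x Genomics), 1 labelled DMSO and 1 labelled MVC, were analysed from the UMI count matrices that the authors deposited, unnormalized, per gene and cell barcode. The submitters' processing notes name Cell Ranger 7.0.0, Seurat 5.0.1 and mm10. Use of strand and of intronic reads is not given in the sources used here. Barcodes below 500 detected genes or above 10% mitochondrial UMIs were dropped. UMIs kept summed to 38748234 (DMSO) and 35518029 (MVC). Clustering (scanpy 1.11.5, Leiden, 2000 variable genes less members and partner lists, 30 principal components, 20 neighbours, resolution 1) gave 25 clusters, named from marker lists. Doublet calls (4.34% and 4.36% of cells) were kept, and removed in an alternative. No correction for free RNA was made. Levels have exact Poisson intervals, ratios exact conditional intervals, shares Clopper-Pearson and their differences Newcombe intervals, each at 95%, for counting error only. With 1 library per group no test was made. Gene positions are from GENCODE M21 (GRCm38), start regions from RefSeq. The 10 members, the partner lists and the comparisons were chosen with earlier results of these data known. All 10 members were named, with up to 4 genes of each partner list per direction by CPM ratio among genes with at least 50 UMIs, and the 10 genes most correlated with the members' mean. SMC-like cells were compared although the MVC library held fewer than 50, a limit lowered to 40 after the data were seen. Alternatives were a stricter cell filter, other clusterings, scaling, cell weighting, fold and count limits. The scripts were tested on simulated data. A result for a partner gene that met the naming rule is not reported here.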

Additional observations from a re-analysis of the deposited data

Results flagged for a closer look

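The genes below had ratios of MVC over DMSO in opposite directions in a pair of cell groups, with both counting intervals away from 1. Each pair holds the highest and the lowest such ratio of the gene over all groups compared. How many of all genes would meet this rule was not counted. With 1 library per treatment none of these differences between groups was tested. Acta2 had a ratio of 3.32 in Ccl19/Lgr5 mural cells and 0.486 in MuSC-like cells, and the latter rested on 1 cell with 140 of 144 UMIs. Myh11 had 1.96 in Ccl19/Lgr5 mural cells and 0.876 in pericyte-like cells. Lmod1 had 1.83 in Ccl19/Lgr5 mural cells and 0.806 in SMC-like cells, and without the 3 richest cells of each library 1.44 and 0.722. Tagln had 5.54 in tenocyte-like cells and 0.437 in Schwann-like cells, where the ratio without the 3 richest cells was 0.551 (0.268–1.10). Des had 1.19 in FAP-like cells and 0.62 in MuSC-like cells. Mylk had 2.25 in macrophage-like cells, from 19 and 48 UMIs, and 0.891 in SMC-like cells. Without the 3 richest cells of each library these ratios were 1.62 (0.739–3.74) and 0.912 (0.816–1.02), and both intervals then held 1.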

How the results depend on the processing

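No paired analysis was possible because each group held 1 library, and for the same reason no library could be left out. Of 101 alternative values for the summed levels and the counts of members, 78 stayed within counting error or within 1.5 times the count and 23 moved. None was labelled reversed, but counts could not receive that label, and a ratio could only if its main value was past the 1.5-fold limit. The sums of MVC over DMSO in SMC-like and pericyte-like cells were not past it. The summed ratio of MVC over DMSO in SMC-like cells was 0.960 without doublets, 0.868 under the stricter cell filter (31 and 26 cells left), 0.878 when scaled by the median ratio, and 1.13, the other direction, as a mean of each cell's own CPM. In Ccl19/Lgr5 mural cells it was 2.55 under the stricter filter, 2.07 with genes centred within library before clustering, 2.14 without the 3 highest cells per library and 2.15 as a per-cell mean. In pericyte-like cells it was 0.938 as a per-cell mean. The summed ratio of SMC-like over pericyte-like cells in the DMSO library was 7.98 without doublets and 5.83 under the stricter filter. It was 8.20 without the 3 highest cells and 7.40 as a per-cell mean, and each of these lay below the main ratio. In the MVC library the stricter filter gave 4.93 and leaving out the 3 highest cells 7.42, both below the main ratio there. The per-cell mean gave 8.93, above it. At least 2-fold, 5 members were higher in Ccl19/Lgr5 mural cells and 1 in pericyte-like cells, where the count was 1 also without the 3 highest cells and by the per-cell mean. With no filter on low counts, 1 member was lower in each of the 3 mural groups, each from 1 or 2 UMIs in DMSO and 0 in MVC. These were Actg2 in SMC-like (1 UMI), Pln in Ccl19/Lgr5 mural (2) and Cnn1 in pericyte-like cells (2). Pln, with 4 and 8 UMIs, was then higher in pericyte-like cells. The share over all genes without this filter was not counted. Of 315 values of single genes in the mural groups under these alternatives, 42 moved beyond counting error and 15 changed by over 1.5 times, 10 of these under the stricter filter. The label reversed, open only to ratios past the limit in the main values, was given to 0. In MuSC-like cells, outside these 315, the Acta2 ratio of MVC over DMSO turned from 0.486 to 36.9 without the 3 richest cells. Per-cell means gave Actg2 2.21 (main value 3.72) and Des 1.51 (main value 0.994) in Ccl19/Lgr5 mural cells. The cause of these shifts was not tested. The 47 SMC-like cells of the MVC library limit the precision of Cnn1, Pln and Des there.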
